A study of Mus musculus with 3 samples.

Results

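Collagen needs a set of dedicated proteins in the endoplasmic reticulum before it can be secreted, and 9 genes of that set were followed here: Serpinh1, P4ha1, P4ha2, P4hb, Plod1, Plod2, Plod3, Crtap and Fkbp10. They were taken as a named group, and every probe set that the platform annotation gives to 1 of these genes alone was used. This gave 12 probe sets for 8 of the 9 genes, out of 18193 genes with such a probe set in the whole table. The annotation used here lists no probe set for Fkbp10, a peptidyl-prolyl isomerase that assists collagen folding, so Fkbp10 was not analysed here. The samples were mouse embryonic stem cells, pluripotent cells of the early embryo, modified so that dex turns on overexpression of Gata6, which encodes a DNA-binding regulator needed to form primitive endoderm. The labels give 1 array each for day 0 (the control), day 1 and day 2 of Gata6 overexpression. The sources used here do not say whether the day 0 cells carried the modification, which dose of dex was used, or how many lines of which strain were grown. Effects of dex itself and of Gata6 cannot be told apart in this design.

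Collagen chains are modified while they are still unfolded. Prolyl 4-hydroxylase, a tetramer of catalytic alpha subunits (P4ha1 or P4ha2) and the beta subunit P4hb (protein disulfide isomerase), hydroxylates prolines and so makes the triple helix stable at body temperature. The lysyl hydroxylases Plod1, Plod2 and Plod3 modify lysines that later carry sugars or crosslinks, Crtap is the helper subunit of a prolyl 3-hydroxylase complex, and the chaperone Serpinh1 (Hsp47) binds the folded triple helix. Both kinds of hydroxylase need oxygen, iron, 2-oxoglutarate and vitamin C. Primitive endoderm and its parietal derivative are known for making large amounts of basement membrane, whose main collagen is type IV.

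The arrays had medians of 84.2 on day 0, 81.8 on day 1 and 86.4 on day 2, in units of MAS5 signal, a linear brightness per probe set. Values under a floor of 54.0 were set to it. RNA integrity, read as the 3' over 5' signal for Actb, was alike on the arrays (1.21 to 1.25). The overexpressed gene, Gata6, read 110 on day 0, 5574 on day 1 and 6069.6 on day 2. The list of 15 primitive and parietal endoderm markers includes Gata6 itself. On day 2, 15 of 15 of these markers lay 2-fold or more above day 0, with none below it. Of 11 pluripotency markers, 9 lay 2-fold or more below day 0. The summed signal of the endoderm markers was 8178, 111332 and 184517 on days 0, 1 and 2, and its part in the differences below was not tested. With 1 array per day there are no replicates, so no test between days was possible, and effects of the day cannot be told apart from those of the culture or array. In whole cultures, more cells that express a gene and more RNA of it per cell cannot be told apart.

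As the only measure of error, the log2 ratios of different probe sets for the same gene were compared. Over 47012 pairs of probe sets from the 3 comparisons, the SD of a log2 ratio was 0.50 where the signal was below 200. It was 0.39 between 200 and 1000, 0.25 between 1000 and 5000, and 0.16 for brighter probe sets. This probe set SD holds the differences between probe sets of a gene, whatever their source, and none of the spread between cultures. Error shared by all probe sets of an array is not in it either. A gene was called higher or lower where its signal differed at least 2-fold and the brighter array lay above the floor. All 12 probe sets of the collagen enzymes lay above the floor on all 3 arrays, so none of their folds is a bound.

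Within the first day, 5 of the 8 enzymes were called higher, 0 were called lower and 3 stayed within 2-fold. Over all 13602 genes compared, 6.00% were called higher on day 1 than on day 0 and 6.58% lower. The median log2 ratio was 2.17 for the 8 enzymes and -0.04 for all genes. By day 2, 6 of 8 enzymes were called higher than on day 0 and 0 lower. Among all 13865 genes compared, 11.0% were called higher and 10.1% lower, and the medians were 2.68 for the enzymes and -0.05 for all genes. Between day 2 and day 1, 2 enzymes were called higher, P4ha2 and Plod3, and 0 lower, against 5.61% higher and 3.67% lower of all 13468 genes. The medians there were 0.62 and -0.01. The comparisons of day 1 and of day 2 with day 0 share the day 0 array. The split of calls depended on the scaling. Of all calls, 52.3% were higher on day 2 than on day 0 and 60.5% higher on day 2 than on day 1, and with arrays centred on housekeeping genes these shares were 80.2% and 90.9%, with the median of all genes at 0.35 and 0.38. Under that centring 7 enzymes were called higher on day 2 than on day 0, Plod1 among them, and 4 higher on day 2 than on day 1, Serpinh1 and P4ha1 among them.

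**Figure D1:**
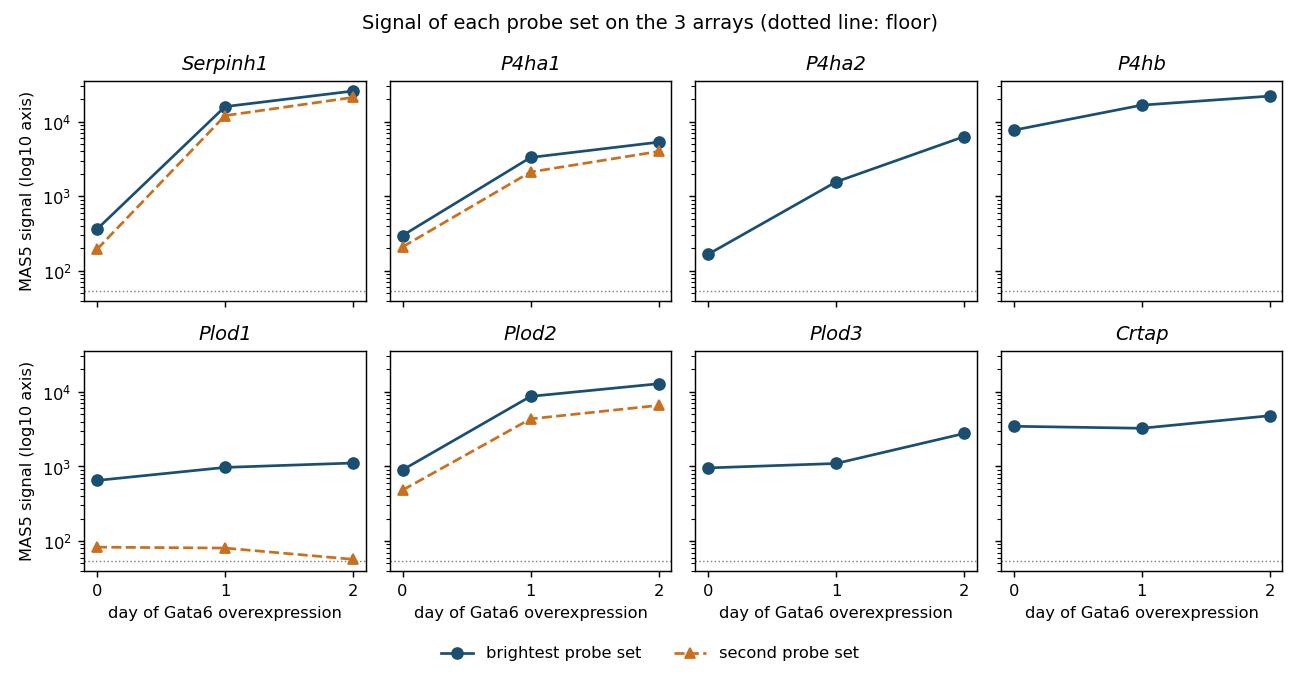
MAS5 signal (log10 axis) of the 12 probe sets on day 0, day 1 and day 2, 1 panel per gene; circles and solid lines are the brightest probe set of the gene, triangles and dashed lines the second one, and the dotted line is the floor of 54.0. Serpinh1, P4ha1, P4ha2 and Plod2 were far dimmer on day 0 than on the later days, while Crtap and Plod1 stayed within 2-fold of day 0 and Plod3 differed mainly on day 2.

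The chaperone Serpinh1 showed the widest difference of the group. Its brighter probe set read 363 on day 0, 15946 on day 1 and 25803 on day 2. Its second probe set read 195, 12067 and 21216 on the same days. The low array was thus day 0 on both probe sets, and most of the difference was there by day 1. On the brighter probe set, day 1 was 44.0-fold above day 0 (log2 ratio 5.46, probe set SD 0.25), and day 2 was 71.1-fold above day 0 (6.15, SD 0.25). The second probe set gave 62.0-fold and 109-fold. With values under the floor set to it, 12 genes of all compared had a higher ratio than Serpinh1 on day 1 against day 0. On day 2 against day 0 there were 13. Genes under the floor on day 0, such as Foxa2 and Gata4, enter with lower bounds, so both counts are minima. Both Serpinh1 probe sets carry name endings (_a_at and _x_at) that mark probes shared between transcripts or with similar sequences, so this gene drops out where such probe sets are left out.

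Prolyl 4-hydroxylase differed in its catalytic subunits far more than in its beta subunit. P4ha1 read 298 on day 0, 3319 on day 1 and 5323 on day 2 on its brighter probe set. Its second probe set read 210, 2119 and 3998. Both probe sets therefore put day 0 lowest and day 2 highest, with 11.1-fold and 10.1-fold more signal on day 1 than on day 0 and 17.8-fold and 19.1-fold more on day 2.

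P4ha2, the alternative catalytic subunit, has 1 probe set, which read 167 on day 0, 1562 on day 1 and 6323 on day 2. Unlike that of P4ha1, its signal differed widely in both steps: it was 9.36-fold above day 0 on day 1 (log2 ratio 3.23, probe set SD 0.39) and a further 4.05-fold above day 1 on day 2 (2.02, SD 0.25). On day 2 it was 37.9-fold above day 0. On day 1 the log2 ratios of the alpha subunits to day 0 differed by 0.25, less than the combined SD of 0.55. Between day 2 and day 1, the log2 ratio of P4ha2 exceeded that of P4ha1 by 1.34 (combined SD 0.35).

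P4hb, which also works as a disulfide isomerase and chaperone outside the hydroxylase, was bright on every array. It read 7699 on day 0, 16686 on day 1 and 22062 on day 2, on 1 probe set whose name ends in _a_at. The signal was 2.17-fold above day 0 on day 1 (log2 ratio 1.12, probe set SD 0.16) and 2.87-fold on day 2 (1.52, SD 0.16). The day 1 value lay close to the 2-fold threshold.

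The lysyl hydroxylases differed from each other. Plod2, which hydroxylates lysines in the telopeptides of fibrillar collagens, read 899 on day 0, 8707 on day 1 and 12839 on day 2. A second probe set read 481, 4344 and 6588. Day 0 was low on both, and the probe sets gave 9.69-fold and 9.03-fold more signal on day 1 than on day 0 and 14.3-fold and 13.7-fold more on day 2.

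Plod3, which also transfers the sugars that type IV collagen carries on its hydroxylysines, read 956 on day 0, 1096 on day 1 and 2767 on day 2 on its 1 probe set. Here day 2 alone stood high. Day 1 was 1.15-fold above day 0 (log2 ratio 0.20, probe set SD 0.25), and day 2 was 2.52-fold above day 1 (1.34, SD 0.25) and 2.89-fold above day 0 (1.53, SD 0.25). For day 2 over day 1, the log2 ratio of Plod3 was 0.78 above that of Plod2 (combined SD 0.29), and on day 1 against day 0 that of Plod2 was 3.08 above that of Plod3 (combined SD 0.35).

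Plod1, which hydroxylates lysines in the triple helix, read 649 on day 0, 971 on day 1 and 1112 on day 2 on its brighter probe set, and 82.8, 80.5 and 56.9 on a second one close to the floor. The probe sets did not go the same way: the brighter one had log2 ratios to day 0 of 0.58 on day 1 and 0.78 on day 2 (probe set SD 0.39), and the dim one -0.04 and -0.54 (SD 0.50). None of these reached 2-fold. With the mean over both probe sets the day 2 log2 ratio was 0.12.

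Crtap, the prolyl 3-hydroxylation subunit, read 3457 on day 0, 3250.1 on day 1 and 4786 on day 2. The 3 arrays lay within 2-fold of each other. The log2 ratio to day 0 was -0.09 on day 1 and 0.47 on day 2 (probe set SD 0.25).

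**Figure D2:**
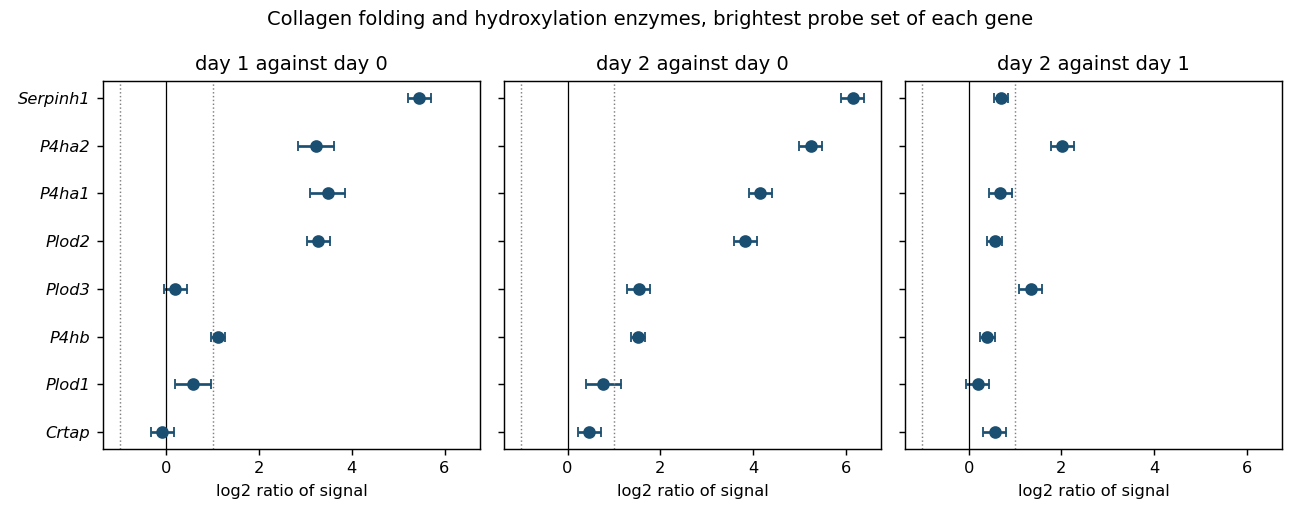
Log2 ratio of signal for the brightest probe set of each of the 8 genes in the 3 comparisons; bars are the probe set SD, which holds no spread between cultures, and dotted lines mark 2-fold. Serpinh1, P4ha1, P4ha2 and Plod2 lie apart from the other genes in both comparisons with day 0, and P4ha2 and Plod3 lie above 2-fold on day 2 against day 1.

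Ordered by the day 1 ratio to day 0, the genes ran Serpinh1, P4ha1, Plod2, P4ha2, P4hb, Plod1, Plod3 and Crtap. Neighbours in that order differed by more than 2 combined SDs at 2 places, between Serpinh1 and P4ha1 (log2 difference 1.98) and between P4ha2 and P4hb (2.11). For day 2 over day 0 the order was Serpinh1, P4ha2, P4ha1, Plod2, Plod3, P4hb, Plod1 and Crtap. There Serpinh1 lay above P4ha2 by 0.91, P4ha2 above P4ha1 by 1.09 and Plod2 above Plod3 by 2.30, each more than 2 combined SDs, and the other neighbours did not differ by that much. Signals of different probe sets are not comparable in level, so only ratios were ordered.

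**Figure D3:**
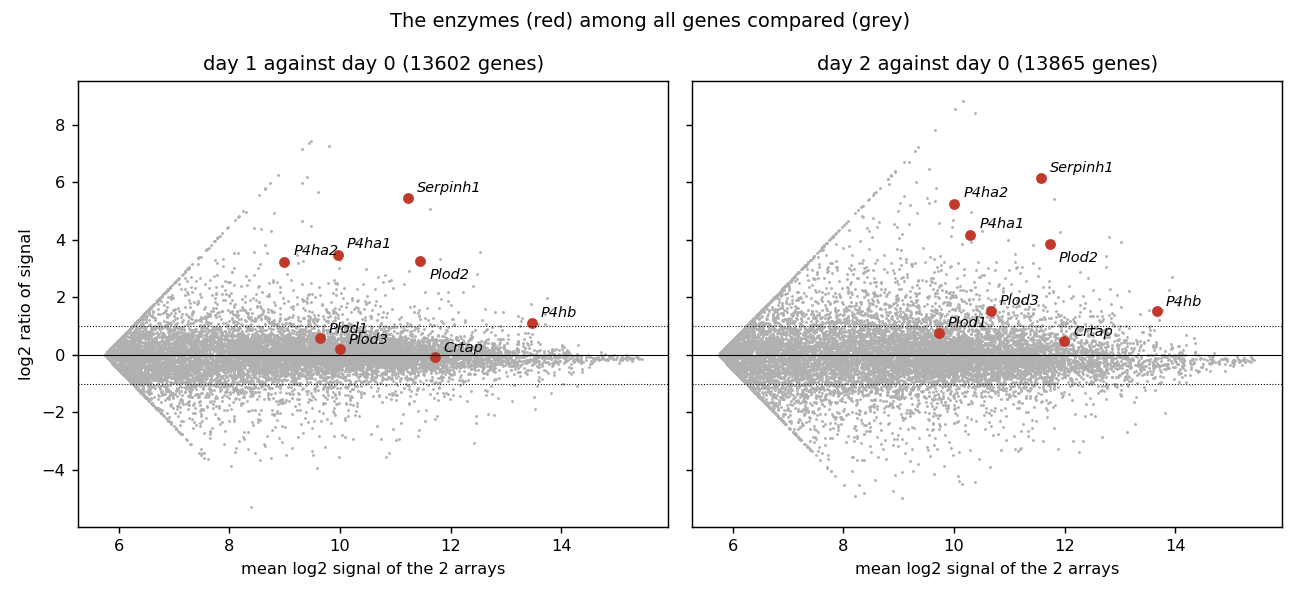
Log2 ratio of signal against mean log2 signal of both arrays for all genes compared (grey, 13602 on day 1 and 13865 on day 2 against day 0) with the 8 enzymes in red; dotted lines mark 2-fold, and the straight edges at the left are genes with 1 array at the floor. Serpinh1, P4ha1, P4ha2 and Plod2 lie near the upper edge of the grey points at their brightness on both days, and Crtap and Plod1 lie between the dotted lines.

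Stretches of promoter are shown for the 3 genes with the widest day 2 ratios and for Crtap, whose signal stayed within 2-fold, so that their letters can be set side by side. Each runs 5' to 3' over the 250 bases before the gene's start (RefSeq, GRCm38.p6). Capitals mark AGATAA (a motif of the Gata family), GCGTG (a form of the hypoxia response core), CCACG (part of the endoplasmic reticulum stress element) and CCAAT, each on either strand.
Serpinh1, chr7:99353240-99353489, minus strand: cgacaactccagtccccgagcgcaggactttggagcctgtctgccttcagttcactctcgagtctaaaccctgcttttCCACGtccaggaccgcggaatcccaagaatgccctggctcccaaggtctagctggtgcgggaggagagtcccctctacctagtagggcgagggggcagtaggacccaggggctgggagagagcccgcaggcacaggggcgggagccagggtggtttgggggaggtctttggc
P4ha1, chr10:59323046-59323295, plus strand: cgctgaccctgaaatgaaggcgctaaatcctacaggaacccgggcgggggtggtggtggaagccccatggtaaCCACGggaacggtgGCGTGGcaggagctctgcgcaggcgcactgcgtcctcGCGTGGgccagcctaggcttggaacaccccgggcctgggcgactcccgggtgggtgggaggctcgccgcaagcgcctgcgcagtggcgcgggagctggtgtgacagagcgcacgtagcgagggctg
P4ha2, chr11:54100674-54100923, plus strand: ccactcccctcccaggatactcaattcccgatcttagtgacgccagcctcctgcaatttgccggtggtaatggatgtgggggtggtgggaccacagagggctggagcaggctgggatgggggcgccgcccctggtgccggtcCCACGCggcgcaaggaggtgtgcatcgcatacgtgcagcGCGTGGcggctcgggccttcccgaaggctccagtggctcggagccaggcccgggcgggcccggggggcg
Crtap, chr9:114390713-114390962, minus strand: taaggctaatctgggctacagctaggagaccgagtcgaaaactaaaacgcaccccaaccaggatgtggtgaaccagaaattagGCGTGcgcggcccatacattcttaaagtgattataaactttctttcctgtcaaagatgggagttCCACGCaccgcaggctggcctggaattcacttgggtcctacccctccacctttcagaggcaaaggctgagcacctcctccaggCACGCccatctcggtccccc

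RefSeq promoters of 7 of the 9 genes were at hand, all but Plod2 and Fkbp10, so Plod2 was not searched. The search covered 300 bases, 250 before and 50 after the start. AGATAA was found in 0 of 7, against 11.2% of 32851 mouse promoters of the same length. GCGTG was found in 6 of 7 (32.4% of all) and CCACG in 6 of 7 (32.8% of all), while CCAAT was found in 2 of 7 (37.4% of all), P4hb and Plod3. GCGTG and the reverse complement of CCACG overlap in GCGTGG, a string chosen after the promoters were seen. It occurs at 2 places each in P4ha1 and P4ha2, at 1 place each in Crtap and Plod1, and in 15.6% of all promoters. Serpinh1 holds CCACG at 2 places, of which the one after the start is not shown, and no GCGTG. The 7 windows were 53.3% to 70.3% G and C, against a median of 52.7% for all promoters. Crtap shares motifs with P4ha1 and P4ha2, and Serpinh1 holds fewer of them. Whether these motifs bear on the ratios was not tested.

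The rest of the collagen pathway was read from lists of other genes, whose counts stand against 6.00% higher and 6.58% lower of all genes on day 1 and 11.0% and 10.1% on day 2, both against day 0. The nearest relatives are 15 other genes, mostly enzymes and chaperones of the endoplasmic reticulum that act on collagen or its partners. The 15 also hold Tmem38b, which is neither, and the matrix protein Sparc, which was called higher on both days. Of these, 13 were compared on day 1 against day 0, with 3 called higher and 0 lower (median log2 ratio 0.44). Of 14 compared on day 2 against day 0, 5 were called higher and 0 lower (median 0.80). The prolyl 3-hydroxylase P3h2, which acts on type IV collagen, read 151 on day 1 and 933 on day 2 and was under the floor on day 0, at least 17.3-fold higher on day 2. P3h1, the enzyme that pairs with Crtap, was 2.15-fold higher on day 2 than on day 0 on its brightest probe set and 2.66-fold on its other one. P3h4 was 2.03-fold higher. The 2.15-fold and 2.03-fold values lay close to the threshold. Sparc, a collagen-binding matrix protein, read 6121 on day 0, 20721 on day 1 and 40302 on day 2, while a dim probe set of the gene had a log2 ratio of 0.88 on day 2 against day 0. Fkbp11, an isomerase of secretory cells, was 4.03-fold higher on day 2 than on day 0 on its brightest probe set. Its other probe sets were under the floor on day 0, so that their log2 ratios, at least 0.26 and at least 0.86, are lower bounds.

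Genes for the export of procollagen, a cargo too long for ordinary vesicles, were compared next. Of 12 compared on day 1 against day 0, 3 were called higher and 0 lower (median log2 ratio 0.63), and of 13 on day 2 against day 0, 7 were called higher and 0 lower (median 1.02). The coat subunit Sec24d was 6.56-fold and the retrieval receptor Kdelr3 4.22-fold higher on day 2 than on day 0. Creb3l2, a transcription factor of the endoplasmic reticulum that is known to activate coat genes in cartilage cells, read 84.4 on day 0, 978 on day 1 and 1826 on day 2. Its day 2 signal was 21.6-fold that of day 0 on this probe set and 9.78-fold on its other one.

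General chaperones and disulfide enzymes of the endoplasmic reticulum, the neighbours of P4hb, were listed together with stress response genes. The latter included Herpud1 and the transcription factors Atf4, Atf6, Xbp1 and Ddit3. Atf6 was among the genes called higher on both days, and Xbp1 among those on day 2. On day 1 against day 0, 9 of 25 listed genes were called higher and 0 lower (median log2 ratio 0.78). By day 2, 16 of 25 were called higher and 1 lower (median 1.13). The lower one was Atf4, a stress response transcription factor, at a log2 ratio of -1.08. The co-chaperone Dnajc3 was 6.79-fold, the disulfide isomerase Pdia5 5.79-fold and the thioredoxin-like Txndc12 4.76-fold higher on day 2 than on day 0. The difference in P4hb (log2 ratio 1.52) thus lay within the range of these genes, whereas the day 2 log2 ratios of Serpinh1, P4ha1, P4ha2 and Plod2 all exceeded that of Dnajc3 (2.76), the highest on the list.

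The substrates themselves were compared next. Of 36 collagen chain genes on the array, 24 were compared on day 1 against day 0, and 4 were called higher and 1 lower (median log2 ratio -0.15, or 0.47 with the floor at the 60th percentile). By day 2, 4 of 24 were called higher and 2 lower (median -0.01). The share called higher on day 1 lay above the 6.00% of all genes. On day 2, with 11.0% higher and 10.1% lower over all genes, the counts lay near the background. The collagen genes called higher included both chains of the main basement membrane collagen. Col4a1 read 2147 on day 0, 14989 on day 1 and 32402 on day 2. Col4a2 read 886, 6640 and 16887. These were 15.1-fold and 19.1-fold higher on day 2 than on day 0. The other higher ones, on both days, were Col27a1, at 7.40-fold on day 2, and Col13a1, at 2.91-fold on day 2. The lower ones on day 2 were Col18a1, another basement membrane collagen, at 13.8-fold lower (176 on day 2, against 2437 on day 0; log2 ratio -3.79, and -4.62 on its other probe set), and Col5a3. Col5a3 was under the floor on day 2, so its ratio is a bound. The fibrillar chains Col1a1 and Col3a1 were under the floor on all 3 arrays. Col27a1 and Col5a3 are fibrillar chains too, and were called higher and lower as given above. Col1a2, Col5a1 and Col11a1, also fibrillar, lay above the floor on all 3 arrays on their brightest probe sets and stayed within 2-fold. Col5a1, for example, read 194, 268 and 245 on days 0, 1 and 2.

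Proteins that act on collagen after secretion were called in both directions. On day 1 against day 0, 1 of 11 was called higher and 3 lower, and on day 2 against day 0, 1 of 10 higher and 3 lower. The median log2 ratios were -0.11 and -0.12, and both were -1.17 with a higher floor (60th percentile), which left fewer genes to compare. Pcolce, the enhancer of the protease that trims fibrillar procollagen, read 241 on day 2, against 5360.5 on day 0, and so was 22.3-fold lower (log2 ratio -4.48, and -3.79 on its other probe set). Its relative Pcolce2 was 5.88-fold and the lysyl oxidase Loxl1 3.36-fold lower. The higher one was Pxdn (peroxidasin), which crosslinks type IV collagen, at 2280.1 on day 2 and 125 on day 0, 18.2-fold higher.

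Because P4ha1, P4ha2 and Plod2 are known targets of hypoxia signalling, 24 other common targets or factors of that response were listed. Of 23 compared, 1 was called higher and 3 lower on day 1 against day 0 (median log2 ratio -0.13), and 3 higher and 2 lower on day 2 against day 0 (median 0.10). With 11.0% higher and 10.1% lower over all genes on day 2, these counts lay near the background. Ndrg1, a known hypoxia target, was 4.82-fold higher on day 1 and 10.9-fold on day 2 on its brightest probe set. Pdk1, a kinase that restrains pyruvate entry into mitochondria, was 3.73-fold lower on day 1 and 7.08-fold lower on day 2, and the histone demethylase Kdm3a was 2.72-fold and 3.60-fold lower. The hypoxia factor Hif1a stayed within 2-fold, at 3781, 4680.0 and 4170 on days 0, 1 and 2, and Epas1 (Hif2a) read 1656, 410 and 7544. The day 2 log2 ratio of Epas1 to day 0 was 2.19, and 1.32 on its other probe set. The 5 probe sets of Ndrg1 had log2 ratios of 2.28 to 4.02 on day 2 against day 0, a range that holds both probe sets of Plod2 (3.84 and 3.78) and lies below P4ha1 (4.16 and 4.25) and P4ha2 (5.24). Of 8 measured genes for other oxygen-dependent hydroxylases and vitamin C supply, 0 were called on day 1 against day 0, and 1 was called higher on day 2 (Egln1, 2.09-fold), with 0 lower (medians -0.11 and 0.12).

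**Figure D4:**
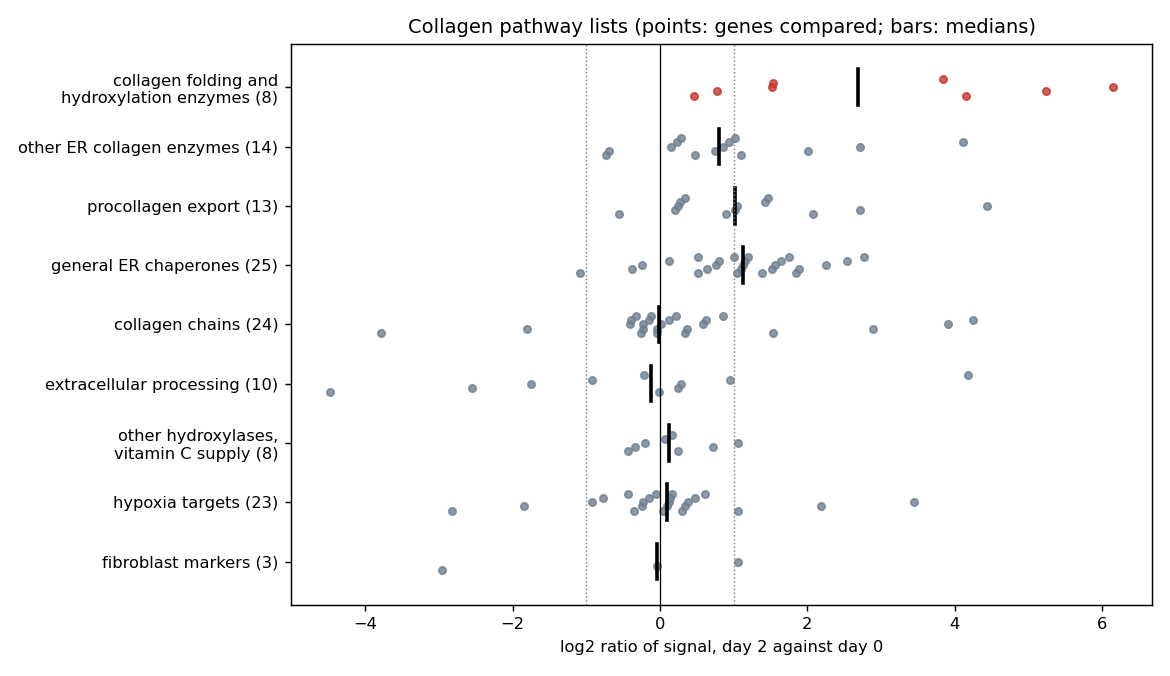
Log2 ratio of signal on day 2 against day 0 for each gene compared, by list (number of genes in brackets); black bars are medians, dotted lines mark 2-fold, and a gene at the floor on 1 array shows only a bound. The 8 enzymes have a median of 2.68, the other endoplasmic reticulum lists lie between 0.80 and 1.13, and collagen chains, extracellular enzymes, other hydroxylases and hypoxia targets have medians between -0.12 and 0.12 with a few genes far out on either side.

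Other cells that make much collagen were checked by their markers. Of 12 fibroblast markers, which would show feeder cells, 4 were above the floor on at least 1 array, and all 12 had a summed signal of 726 (day 0), 469.7 (day 1) and 506 (day 2). Col1a1, Col3a1, Postn, Dcn and Lum were under the floor on all 3 arrays. Between day 2 and day 0, 1 of 3 markers compared was called higher (Twist1, which reached 113) and 1 lower (Thy1), with a median log2 ratio of -0.04. Of 8 osteoblast and chondrocyte markers on the array, Ibsp and Sox9 were under the floor on all 3 arrays. Of the 6 compared between day 2 and day 0, 0 were called higher and 1 lower (median -0.72). All 8 had a summed signal of 1148, 791 and 674 on days 0, 1 and 2. Of 11 housekeeping genes, 2 were called higher and 1 lower on day 2 (median -0.09).

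Genes whose pattern over the 3 arrays was most like that of each enzyme were named by the Euclidean distance between pairs of log2 ratios, those of day 1 and of day 2 to day 0, among 10914 genes above the floor on every array. On the brightest probe sets, Gata6 itself was nearest to Serpinh1 (distance 0.42), followed by Amot (0.59) and Hs3st1 (0.75). This order changed with the probe set: to the second probe set of Serpinh1, Amot was nearest (0.33) and Gata6 lay at 1.02, and another probe set of Gata6 lay at 1.87 from the first. Other probe sets of Amot lay at 3.41 and 6.59. The laminin chain Lama1 was nearest to P4ha1 (0.11), with Car4 (0.16) and Creb3l2 (0.28) next, and to its second probe set the same 3 genes were nearest, led by Car4 (0.21). Other probe sets of Car4 and Creb3l2 lay at 1.18 and 1.38 from the first. Tax1bp3 (0.34), Lama1 (0.39) and Gadd45g (0.42) were nearest to Plod2, and Tax1bp3 (0.29), Gadd45g (0.31) and Shtn1 (0.35) to its second probe set. P4hb had the disulfide isomerase Pdia6 as its nearest gene (0.01), followed by Capn6 (0.02, and 1.23 on its other probe set) and Aebp1 (0.02). Those of P4ha2 were Aqp8 (0.33), Spesp1 (0.68) and F3 (0.69), and those of Plod3 were Myh9 (0.09), Hoxd8 (0.09) and Marveld1 (0.09), with other probe sets of Myh9 and Marveld1 at 0.47 to 1.35. With 3 arrays such likeness is a description of these ratios alone. The probe set SD, 0.39 for signals from 200 to 1000, belongs to a single log2 ratio and not to a distance between pairs of ratios. The error of these distances was not estimated, so the order of the genes is not resolved.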

How the data were processed

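The authors deposited 1 intensity per probe set and array, on a linear scale, for 3 mouse arrays. Per the submitters' processing notes these come from MAS5, with no version or scaling target stated. The deposited arrays had 2% trimmed means of 497.5, 497.6 and 497.7. Of 45101 probe sets, 34945 were annotated to 1 gene, and 34741 of these matched a RefSeq table (GRCm38.p6, used for names). Here, each array was scaled to a common 2% trimmed mean, values under the 40th percentile of all values were set to that floor, and log2 was taken. A gene was read from whichever of its probe sets had the highest mean on the log2 scale. Calls needed a 2-fold difference, and nothing was tested, as each day has 1 array. A real difference in total RNA between days would be scaled away.

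The enzymes, gene lists and named genes were chosen with earlier results of these data known. Named were the enzymes, list members with the widest day 2 ratio, and the 3 genes nearest in pattern to each called enzyme; further list genes were named after their values were seen. Of the genes named by the rule, those of the marker and housekeeping lists and the vitamin C genes Gulo and Slc23a2 are given only in counts. Some genes stand on more than 1 list: Col4a1 and Col4a2, for example, are also endoderm markers. The steps were checked on simulated data. Python 3.11.15, pandas 2.3.3, scipy 1.17.1 and limma 3.58.1 (R 4.3.3; quantile and loess scaling) were used. The number of arrays limits the precision.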

Additional observations from a re-analysis of the deposited data

How the results depend on the processing

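The processing was changed in 10 ways, which concerned the floor (25th or 60th percentile, or a pseudocount of 16 without a floor), the scaling (as deposited, quantile, cyclic loess, or centring on 11 housekeeping genes), the choice of probe set and the fold threshold, and 1 further centring was added after seeing the data. Of the recomputed log2 ratios of the 8 enzymes, 214 moved by less than the probe set SD and 20 by more, and 0 called ratios changed sign. Day 2 against day 0 ranged from 6.09 to 6.60 for Serpinh1, 5.11 to 5.69 for P4ha2, 4.09 to 4.61 for P4ha1, 3.81 to 4.28 for Plod2, 1.51 to 1.98 for Plod3, 1.52 to 1.97 for P4hb, 0.12 to 1.22 for Plod1 and 0.47 to 0.92 for Crtap.

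With unspecific probe sets left out, 3 enzymes were called higher on day 1 and 4 on day 2, both against day 0, since Serpinh1 and P4hb have no other. At a 3-fold threshold, 4 were called higher on day 1 and 4 on day 2 against day 0, and 1 on day 2 against day 1 (P4ha2). On day 2 against day 1 the number was 4 with centring on the median housekeeping signal (P4ha2, Plod3, Serpinh1 and P4ha1). That centring, which can take its median from a different gene on each array, moved the median log2 ratio of all genes to 0.35 on day 2 against day 0 and 0.38 on day 2 against day 1, and Plod1 then reached 1.22 on day 2 against day 0. It put 80.2% of calls higher on day 2 against day 0 (2829 higher and 699 lower), against 52.3% as reported, and 90.9% on day 2 against day 1 (1995 and 200), against 60.5%. It raised the medians of the lists on day 2 against day 0, and those of collagen chains (0.47) and extracellular proteins (0.33) then lay above 0. With the added centring on each housekeeping gene's own deviations, the medians were 0.03 and 0.06.

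Counts over all genes on day 1 against day 0 were 1256 higher and 1618 lower with the lower floor (25th percentile), 539 and 517 with the higher one, 1449 and 1747 with the pseudocount, and 346 and 288 at 3-fold. On day 2 against day 1 they were 1336 and 912, 440 and 272, 1514 and 1087, and 228 and 112 under the same settings, and on day 2 against day 0 they were 720 and 540 at 3-fold. Which gene was nearest in pattern to Serpinh1 and to P4ha1 changed with the probe set, a check added after seeing the data. No paired analysis was possible because each day has 1 array. The lack of replicates leaves the spread between cultures unmeasured.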
